A study of Mus musculus with 18 samples.

Results

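Livers in which cyclin E1 had been induced were compared with control livers across all genes that had enough counts to be tested. The comparison used the 6 liver libraries of a series of 18, the others being 6 kidney and 6 lung libraries. The deposited table lists 24062 gene symbols, of which 13811 passed edgeR's filter on low counts in the liver libraries and were tested. All mice were C57BL/6, carried the doxycycline-dependent activator rtTA, received doxycycline starting at 3 weeks of age and were sampled at 4 months. Mice of the CCNE-TA group (3 liver libraries) also carried a Ccne1 transgene that rtTA switches on, and mice of the TA group (3 liver libraries) had the activator alone, so the drug and the activator were common to both groups. The labels give neither the promoter that drives rtTA nor the sex of the mice. Whole liver was sampled, so that fewer cells of a type and less RNA per cell cannot be told apart in any value below.

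Cyclin E1 binds and activates CDK2 late in G1, and the complex phosphorylates RB proteins, releases E2F transcription factors and helps replication origins fire and centrosomes duplicate. In normal cells its level falls during S phase, and forced expression is known to cause replication stress and unstable chromosomes. Most hepatocytes of an adult liver are out of the cell cycle, and they carry out the organ's synthesis of plasma proteins, bile acids, cholesterol and fatty acids and its conjugation of drugs and hormones.

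The labelled tissue was checked with hepatocyte markers. Alb, which encodes albumin, was the most abundant gene in all 6 libraries and took 6.4% to 12.3% of the counts. Library totals were 26214869 to 61954486 counts, and 3 counts corresponded to 0.0478 to 0.092 CPM (counts scaled to library size with edgeR's TMM factors), for counting error only. The libraries differed in sex. Xist, the X inactivation transcript of female cells, stood at 781, 660.3 and 3.10 CPM in CCNE-TA 1, 2 and 3 and at 402, 0.270 and 0.227 CPM in TA 1, 2 and 3, so CCNE-TA 1, CCNE-TA 2 and TA 1 had the female pattern. The female TA 1 also differed from the male TA 2 and TA 3 in kidney-specific transcripts. The kidney gene Kap was listed at 22.8, 13.1 and 25.6 CPM in CCNE-TA and 13.8, 0 and 0 CPM in TA, and 10 of 13 kidney markers had no count in TA 2 and in TA 3 while none was at 0 in TA 1. Pancreatic transcripts summed to 200.5 and 55.3 CPM in TA 1 and TA 2 and to 0.990 to 1.45 CPM in the other libraries. On the first principal component, which held 57.8% of the variance, the CCNE-TA libraries stood at -76.8 to -34.9 and the TA libraries at 39.1 to 72.9. The second component, with 18% of the variance, put CCNE-TA 1, CCNE-TA 2 and TA 1 on one side and the other libraries on the other. Nothing in the labels says that the libraries of a group came from separate mice, so p-values measure the spread between these samples.

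Ccne1 checked the labels. The gene lies on the minus strand of chromosome 7 at 38097984 to 38107534 in mm10, and its transcript stood at 298, 210.1 and 353 CPM in CCNE-TA and 2.82, 2.05 and 2.53 CPM in TA, in the order of replicates 1, 2 and 3, which holds for all values below. The lowest CCNE-TA library was far above the highest TA library, and the log2 fold change (CCNE-TA minus TA) was 6.86 ± 0.31 (SE, n = 3 per group, edgeR quasi-likelihood adjusted p = 0.00012). The exact permutation test gave a two-sided p of 0.1, the smallest that 3 libraries against 3 allow. The table has 1 row for the symbol, so transcripts of the transgene and of the resident gene were not told apart. Ccne2, its closest relative, stood at 0.457, 0.164 and 0.429 CPM in CCNE-TA and 0.796, 0.946 and 0.512 CPM in TA and did not pass the test.

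Across the genes tested, 1897 rose (13.7%) and 2045 fell (14.8%) in CCNE-TA liver at an adjusted p under 0.05, together 3942 genes (28.5%). The change reached 8-fold for 139 genes that rose and 48 that fell. For 6614 genes (47.9%) the groups did not overlap, with all CCNE-TA libraries above all TA libraries for 3200 (23.2%) and below them for 3414 (24.7%). The count of calls rested on single libraries. Leaving out CCNE-TA 1 gave 785 up and 736 down, leaving out TA 1 gave 1183 and 1330, TA 2 756 and 1076, and TA 3 639 and 1031, while 507 genes that rose and 669 that fell were called in each of the 6 fits that leave out 1 library. Of all 3942 called genes, 3941 differed in the same direction when CCNE-TA 1 and 2 were set against TA 1 and CCNE-TA 3 against TA 2 and TA 3, as did 10123 of all 13811. The groups did not overlap for 1866 of the genes that rose and 2036 of those that fell, which fixes their direction in any such split. The count of 3941 is therefore no separate evidence that the sexes agree. The median difference of the genes that rose was 1.05 among the female and 1.55 among the male libraries, and that of the genes that fell -0.95 and -1.20. With log2 Xist as a covariate 1501 genes rose (10.9%) and 1555 fell (11.3%). Both of the fits that read the genotype effect against TA 1 gave far fewer calls. Both rest on 1 control library, so a call can be lost there while the fold change stays the same. List medians from these fits are given for some lists below. With TA 2 and TA 3 given a term of their own, called the TA 1 term below, 56 rose and 203 fell, and with TA 2 and TA 3 left out, so that only the CCNE-TA libraries give a spread, 20 rose and 71 fell. Among the controls, sex and the kidney-marker difference cannot be told apart. Over all 6 libraries the kidney markers did not follow sex, since CCNE-TA 3, male by Xist, had the highest sum (39.4 CPM). The lowest sums were in TA 2 (8.62 CPM) and TA 3 (4.18 CPM), so the kidney-marker difference is partly confounded with the group. The share of calls that rose was 48.1%, and it was 65.6% with upper quartile scaling and 60.7% with library totals alone, which moved the median log2 fold change of all genes from 0.02 to 0.21 and 0.18.

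The strongest rises among well-expressed genes were in an interferon-inducible gene, a nuclear noncoding RNA, glutathione transferases and lipid genes. Ifi27l2b, a member of the interferon-inducible Ifi27 family, stood at 101, 121 and 93.5 CPM in CCNE-TA and 10.4, 1.95 and 4.07 CPM in TA, a log2 fold change of 4.25 ± 0.6 (adjusted p = 0.0058). Neat1, the noncoding RNA around which nuclear paraspeckles form, stood at 759.9, 334 and 957 CPM in CCNE-TA and 83.1, 64.1 and 75.6 CPM in TA, a change of 3.2 ± 0.4 (adjusted p = 0.00278). Gstm3, a glutathione transferase of the mu class, stood at 443, 509.8 and 411 CPM in CCNE-TA and 21.8, 59.7 and 73.2 CPM in TA, a change of 3.14 ± 0.43 (adjusted p = 0.00365). All genes of this set were chosen among those whose groups did not overlap, but the levels within CCNE-TA differed, Neat1 being lowest in CCNE-TA 2. Lpl, the lipoprotein lipase that adult hepatocytes express little of, stood at 208, 190.1 and 88.1 CPM in CCNE-TA and 14, 30.4 and 11.1 CPM in TA, a change of 3.13 ± 0.48 (adjusted p = 0.00567). Spp1, which encodes the secreted phosphoprotein osteopontin, had 314, 234 and 218 CPM in CCNE-TA and 44.3, 40.4 and 43.5 CPM in TA, a change of 2.58 ± 0.22 (adjusted p = 0.000865). Lgals1, which encodes the sugar-binding protein galectin-1, had 40.3, 46 and 67.5 CPM in CCNE-TA and 6.56, 7.67 and 12.1 CPM in TA, a change of 2.55 ± 0.3 (adjusted p = 0.00264). The TA libraries lay within 4 CPM of each other for Spp1. The remaining genes of this set were Chka, Col5a3, Gsta2, Fam193b and Mgst3, with log2 fold changes of 2.44 to 2.92. Ifi27l2b, Gstm3, Gsta2 and Lgals1 were called also with TA 2 and TA 3 left out.

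**Figure D1:**
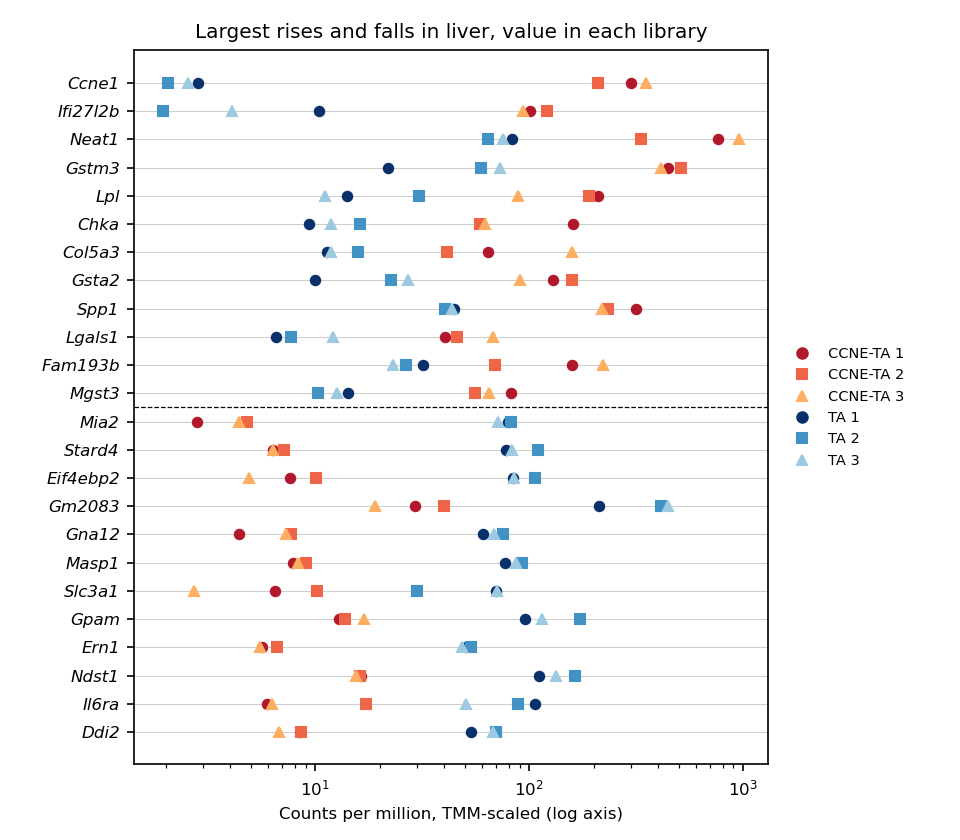
CPM of Ccne1, the 11 named genes with the largest rise and the 12 with the largest fall in each of the 6 liver libraries, on a log axis, with CCNE-TA and TA libraries in different colours. The CCNE-TA and TA points are apart for all 24 genes, which was a condition of choice for all but Ccne1. The log2 fold changes run from 6.86 for Ccne1 to -4.29 for Mia2.

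The 12 named genes with the largest falls were chosen among genes whose groups did not overlap. Each was therefore lower in every CCNE-TA library than in any control. Mia2, which encodes a protein of the endoplasmic reticulum exit sites where large cargo is loaded, stood at 2.79, 4.78 and 4.39 CPM in CCNE-TA and 79.7, 82.3 and 71.6 CPM in TA, a log2 fold change of -4.29 ± 0.25 (adjusted p = 0.000179). Its gene model overlaps that of Ctage5, which RefSeq joins with it and which stood at 175, 202 and 137 CPM in CCNE-TA and 293, 279 and 281 CPM in TA, a smaller change of -0.73 ± 0.22 that did not pass the test after the correction described below (adjusted p = 0.187). Eif4ebp2, an inhibitor of cap-dependent translation, stood at 7.62, 10.04 and 4.91 CPM in CCNE-TA and 84, 107 and 84.9 CPM in TA, a change of -3.61 ± 0.29 (adjusted p = 0.000678). In all of these each CCNE-TA library was under the lowest control. Gna12, an alpha subunit of heterotrimeric G proteins, had 4.42, 7.69 and 7.27 CPM in CCNE-TA and 60.6, 75.6 and 68.3 CPM in TA, a change of -3.4 ± 0.25 (adjusted p = 0.000558). Masp1, a serine protease of the lectin pathway of complement, had 7.87, 9.03 and 8.31 CPM in CCNE-TA and 77.2, 92.1 and 86.3 CPM in TA, a change of -3.34 ± 0.18 (adjusted p = 0.000154). Ern1, which encodes the stress sensor IRE1 alpha of the endoplasmic reticulum, had 5.66, 6.61 and 5.49 CPM in CCNE-TA and 50.8, 53.4 and 48.2 CPM in TA, a change of -3.1 ± 0.17 (adjusted p = 0.000154). In these 3 genes each CCNE-TA library was far below each control. The predicted gene Gm2083 lies at 61224307 to 61228286 on chromosome 4 among the major urinary protein genes, whose near-identical copies make its count uncertain, and stood at 29.3, 39.9 and 18.9 CPM in CCNE-TA and 212, 412 and 447 CPM in TA. Ndst1, Ddi2, Slc3a1 and Il6ra, the last of which encodes the interleukin 6 receptor, fell by 3 to 3.15 on the log2 scale. Of the 12 genes, 10 were called also with TA 2 and TA 3 left out, all but Slc3a1 and Il6ra.

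Fold changes followed transcript length. Medians on the log2 scale were 0.79 for the 799 genes with transcripts under 1000 nt, 0.28 for 1000 to 2000 nt, 0.01 for 2000 to 4000 nt, -0.28 for 4000 to 8000 nt and -0.46 for the 710 genes over 8000 nt. Of the genes under 1000 nt 349 rose and 9 fell, and of those over 8000 nt 28 rose and 219 fell. The median of the shortest class minus that of the longest was 1.38, 1.18 and 1.14 in CCNE-TA 1, 2 and 3, each set against the mean of the TA libraries, and -0.16, -0.16 and 0.34 in TA 1, 2 and 3, each set against the other controls. The gradient was 1.23 ± 0.13 (SD, n = 3) in CCNE-TA, where all 3 libraries share the same reference, and the groups did not overlap. In TA it was 0.006 ± 0.29. Each control is set against the others, which fixes the TA mean near 0 and widens the TA SD. In CCNE-TA the gradient was 1.25 with at least 1 CPM in 3 libraries. The genes that rose had a median length of 2027 nt and those that fell one of 4393 nt, against 3054 nt for all tested. Level moved with the direction of calls as well, since 18.1% of the 3453 genes with the lowest mean level rose and 4% fell, and of the 3453 with the highest level 10.6% rose and 21.7% fell. RNA integrity and the cause of the length gradient were not tested.

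After a correction for transcript length and GC content by a spline offset in each library, the 5 class medians were 0.18, -0.02, 0.006, 0.05 and 0.03 and the gradient was 0.148 ± 0.041. With the correction 1452 genes rose (10.5%) and 1426 fell (10.3%), of which 1134 and 1189 were called in the same direction without it. With the correction and the Xist covariate together 1065 rose (7.71%) and 969 fell (7.02%). Genes with large changes mostly kept their call under the correction. Of the 139 genes that rose by at least 8-fold, 131 were called after the correction and 83 in each of the 6 fits that leave out 1 library, and of the 48 that fell by at least 8-fold, 47 and 35. The 139 had a median level of 0.168 CPM in TA, close to the level of 3 counts, and the 48 one of 15.5 CPM in TA and 1.13 CPM in CCNE-TA, with 32 of the 48 at 4000 nt or longer. Most groups of genes below are given with and without the correction, and the others as deposited only. Over all tested genes 13.7% rose and 14.8% fell as deposited, and 10.5% rose and 10.3% fell after the correction.

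**Figure D2:**
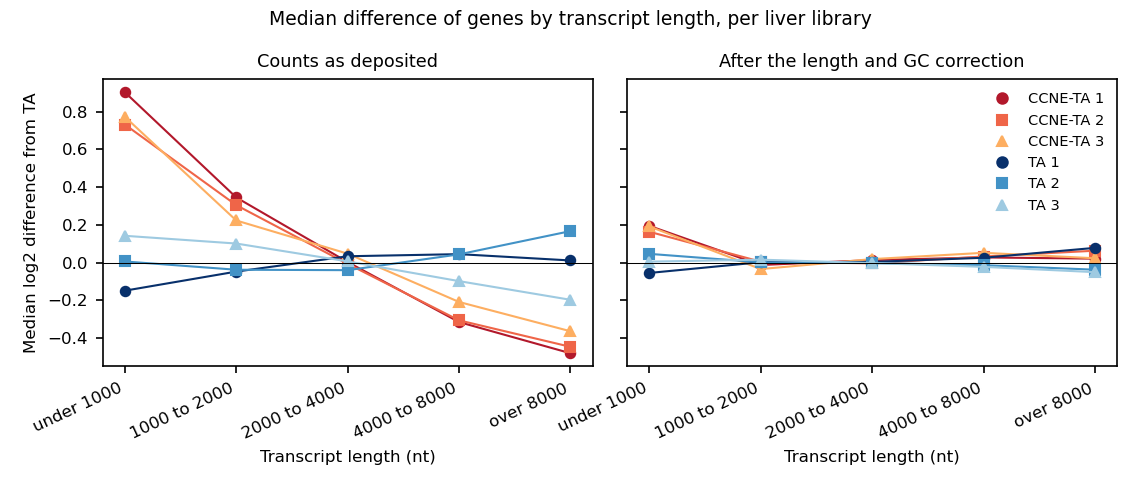
Median log2 difference from the TA libraries by class of transcript length (nt) in each of the 6 liver libraries, with the values as deposited in one panel and after the length and GC correction in the other. The 3 CCNE-TA lines fall from short to long transcripts by 1.14 to 1.38 as deposited and by 0.1 to 0.174 after the correction.

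**Figure D3:**
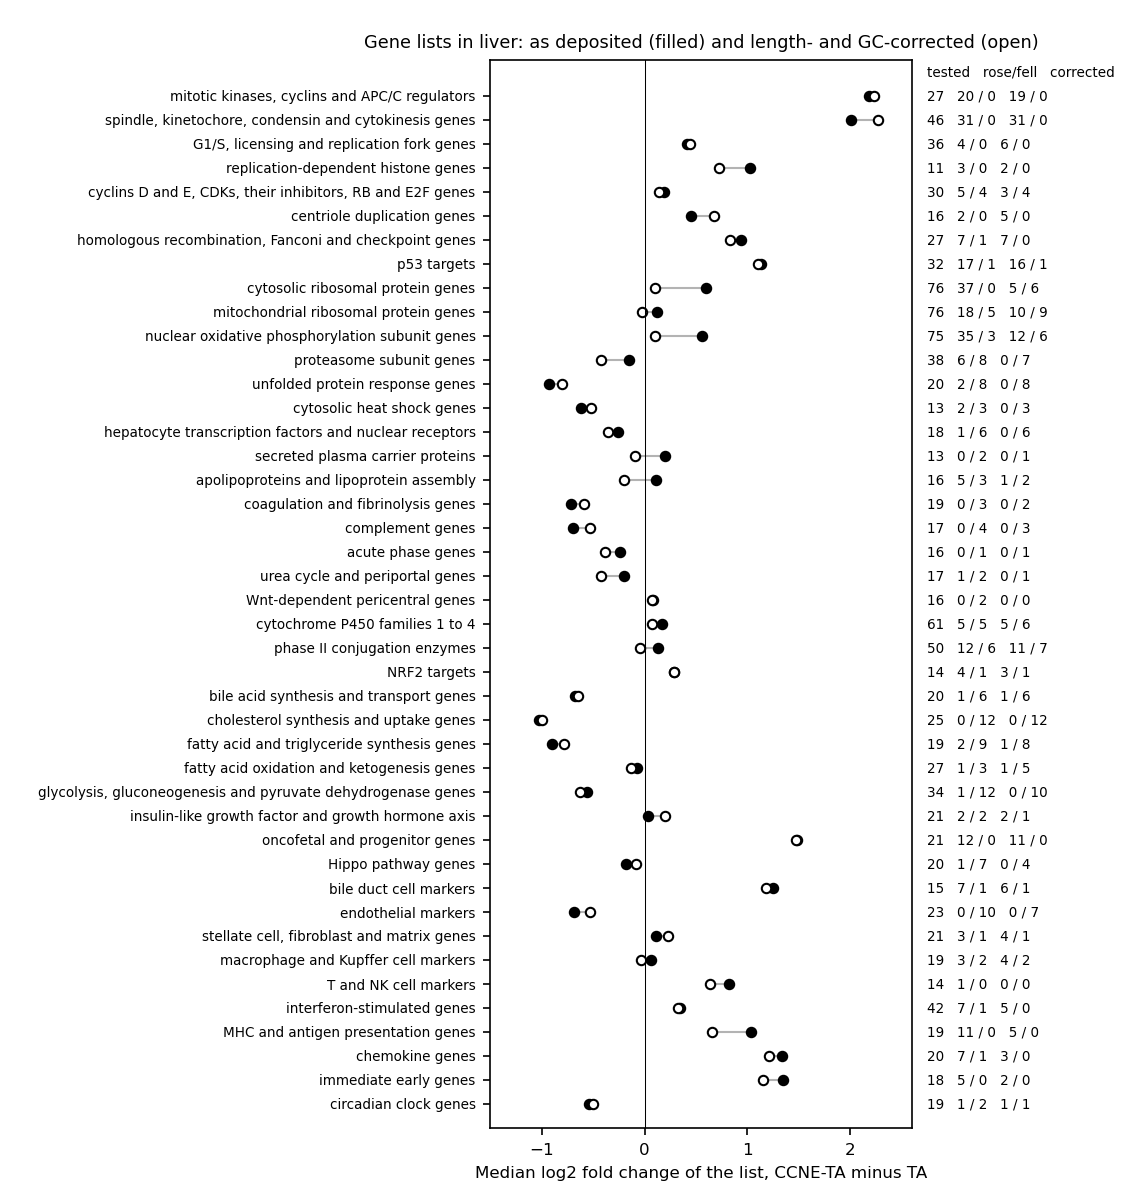
Median log2 fold change of each gene list with at least 10 tested genes, as deposited (filled) and after the length and GC correction (open), with the number tested and the numbers that rose and fell. Mitotic genes stand at 2.19 and 2.23, and ribosomal protein genes move from 0.60 to 0.10.

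Most of the mitotic and spindle genes rose. Of 27 mitotic kinases, cyclins and regulators of the anaphase-promoting complex, 20 rose and 0 fell, with a median log2 fold change of 2.19, against 13.7% and a median of 0.02 over all tested genes. Of 46 spindle, kinetochore, condensin and cytokinesis genes 31 rose and 0 fell, with a median of 2.01. After the length and GC correction 19 rose and 0 fell of the mitotic list (median 2.23) and 31 rose and 0 fell of the spindle list (median 2.27). The levels were graded within both groups. Set against the TA libraries, the median of the mitotic list was 1.39, 1.94 and 3.02 in CCNE-TA 1, 2 and 3 and 0.76, -0.62 and -0.31 in TA 1, 2 and 3, so that CCNE-TA 3 was highest and TA 1 was the highest control. The median difference was 1.03 among the female and 3.03 among the male libraries for the mitotic list, and 1 and 2.93 for the spindle list. The count of mitotic genes that rose was 13, 9 and 7 with CCNE-TA 3, TA 2 and TA 3 left out in turn, and 0 and 0 in the fits against TA 1. With the same 3 libraries left out in turn, 1368, 756 and 639 of all tested genes rose, and the mitotic median was 1.56, 1.97 and 2.03. Without CCNE-TA 3, 1 mitotic gene, the CDK1-inhibiting kinase Wee1, was called as lower. The mitotic median was 1.67 and 1.64 in the fits against TA 1, and the spindle median 1.58 and 1.56. For the spindle list the count was 15, 10 and 9 with CCNE-TA 3, TA 2 and TA 3 left out in turn, and 2 and 0 in the fits against TA 1.

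The members described next are among those with the lowest p in the 2 lists. Ube2c, the ubiquitin-conjugating enzyme of the anaphase-promoting complex, stood at 4.6, 8.72 and 19.5 CPM in CCNE-TA and 0.653, 0.432 and 0.711 CPM in TA, a log2 fold change of 4.18 ± 0.56 (adjusted p = 0.00349). Ccnb2, the cyclin B2 partner of CDK1, stood at 3.55, 5.09 and 8.71 CPM in CCNE-TA and 0.653, 0.621 and 0.654 CPM in TA, a change of 3.16 ± 0.4 (adjusted p = 0.00293). Plk1, a kinase of spindle assembly and mitotic exit, stood at 2.08, 3.38 and 7.55 CPM in CCNE-TA and 0.478, 0.324 and 0.597 CPM in TA, a change of 3.21 ± 0.54 (adjusted p = 0.00707). In each of them CCNE-TA 3 was the highest library and the 3 controls were below 1 CPM. Ckap2, a microtubule-associated protein of the spindle, had 4.06, 8.23 and 5.98 CPM in CCNE-TA and 0.446, 0.297 and 0.54 CPM in TA, a change of 3.82 ± 0.4 (adjusted p = 0.00197). Mki67, which encodes the proliferation antigen Ki-67, had 12.8, 12.5 and 25.8 CPM in CCNE-TA and 4.31, 1.84 and 2.25 CPM in TA, a change of 2.59 ± 0.42 (adjusted p = 0.00614). Mad2l1, a component of the spindle checkpoint, had 7.24, 8.75 and 12.8 CPM in CCNE-TA and 3.18, 2.57 and 3.3 CPM in TA, a change of 1.66 ± 0.28 (adjusted p = 0.00709). Ckap2 was highest in CCNE-TA 2 and the others in CCNE-TA 3, and no control reached the CCNE-TA range. Of these genes Ckap2 was called in the fit with the TA 1 term, and none with TA 2 and TA 3 left out.

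Promoters are shown because many genes of mitosis are known to have a cell cycle homology region (CHR, searched as TTTGAA) near CCAAT boxes, the letters that NF-Y binds. In the 250 bases before the RefSeq start, on either strand, CHR letters were found in 25% of the 20 mitotic and 35% of the 40 spindle promoters matched, and in 11% of the 10999 promoters of tested genes. CCAAT was found in 75% and 65%, against 36.5% of all tested, and both together in 25% and 27.5%, against 4.21%. Either motif alone was as frequent in unrelated lists, with CHR letters in 35.4% of 48 cytochrome P450 and 35.7% of 14 chemokine promoters and CCAAT in 88.2% of 17 cholesterol and 88.9% of 18 unfolded protein response promoters. Both together were in 12.5%, 7.14%, 5.88% and 0% of these lists, in that order, and in 44.4% of 9 promoters of replication-dependent histone genes. The sequences below are the 120 bases before the start on the gene's own strand, from RefSeq on GRCm38.p6, with CHR letters (TTTGAA, or TTCAAA for the other strand) and CCAAT boxes (CCAAT or ATTGG) in capitals. Ckap2 lies at chr8:22185820-22185939 (minus strand), Ube2c at chr2:164769809-164769928 (plus strand), Cdk1, the mitotic kinase itself, at chr10:69352913-69353032 (minus strand) and Kif22, a chromosome-binding kinesin, at chr7:127042421-127042540 (minus strand).
Ckap2: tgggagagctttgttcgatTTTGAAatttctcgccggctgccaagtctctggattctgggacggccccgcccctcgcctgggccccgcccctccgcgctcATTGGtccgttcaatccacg
Ube2c: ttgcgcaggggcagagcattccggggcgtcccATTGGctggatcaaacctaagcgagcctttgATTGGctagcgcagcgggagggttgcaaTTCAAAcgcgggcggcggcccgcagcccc
Cdk1: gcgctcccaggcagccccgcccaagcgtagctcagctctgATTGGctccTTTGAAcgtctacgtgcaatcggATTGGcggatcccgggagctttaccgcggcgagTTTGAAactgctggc
Kif22: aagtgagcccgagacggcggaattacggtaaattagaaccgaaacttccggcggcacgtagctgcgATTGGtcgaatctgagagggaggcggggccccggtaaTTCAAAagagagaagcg
These are the 4 mitotic or spindle genes with the lowest p among those that rose and have both motifs in the 120 bases shown, so that they hold the motifs by choice. Cdk1 stood at 5.36, 13.4 and 16.8 CPM in CCNE-TA and 2.47, 0.675 and 0.967 CPM in TA, a change of 3.09 ± 0.59 (adjusted p = 0.0103). Kif22 stood at 2.54, 2.67 and 8.83 CPM in CCNE-TA and 0.955, 0.27 and 0.512 CPM in TA, a change of 2.97 ± 0.65 (adjusted p = 0.0141), with an adjusted p of 0.0592 without TA 3. A match of letters is a description of the sequence and says nothing of binding in these livers.

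The share of DNA replication genes that rose was near that of all genes as deposited. Of 36 genes of the G1/S transition, origin licensing and the replication fork, 4 rose and 0 fell, with a median of 0.41, against 13.7% that rose over all tested genes. After the length and GC correction 6 rose and 0 fell (median 0.44), against 10.5% of all tested genes that rose. With upper quartile scaling 11 rose, with a median of 0.6, against 2610 of all 13811 tested genes and a median of 0.21. The promoters of the replication list held the E2F letters GCGGGAA in 31% of 29, against 6.66% of all tested. The 4 were Tyms, Lig1, Pole and Gins2, with log2 fold changes of 1 to 1.59, and none of them was called without TA 2 or without TA 3. The count was 1, 0 and 1 with CCNE-TA 3, TA 2 and TA 3 left out in turn, and 0 and 0 in the fits against TA 1. Pcna, the sliding clamp of the fork, stood at 32.1, 35.9 and 16.3 CPM in CCNE-TA and 29.4, 26.2 and 29.2 CPM in TA, and the groups overlapped. Of 30 D- and E-type cyclins, CDKs, CDK inhibitors, RB and E2F genes 5 rose and 4 fell, shares near the 13.7% and 14.8% of all tested genes. The count that rose was 0, 3, 2, 3, 0 and 1 with CCNE-TA 1, CCNE-TA 2, CCNE-TA 3, TA 1, TA 2 and TA 3 left out in turn, and 0 and 0 in the fits against TA 1. The number that fell was 1 with CCNE-TA 1 left out, and 1 and 0 in the fits against TA 1. Rbl2, which encodes the RB-related protein p130 of quiescent cells, stood at 15.5, 17.8 and 16.4 CPM in CCNE-TA and 41.9, 52.5 and 39.8 CPM in TA, a log2 fold change of -1.43 ± 0.18 (adjusted p = 0.00277). Each CCNE-TA library was below each control for Rbl2.

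Targets of p53, the factor that answers DNA damage, were among the genes that rose, and the list median was similar in all 3 CCNE-TA libraries. Of 32 targets 17 rose and 1 fell, with a median of 1.13, and after the length and GC correction 16 rose and 1 fell with a median of 1.11. The list median per library was 0.96, 1.04 and 1.25 in CCNE-TA 1, 2 and 3 and 0.07, -0.02 and -0.02 in TA 1, 2 and 3. Phlda3, an inhibitor of AKT signalling, stood at 12.8, 22.3 and 16.7 CPM in CCNE-TA and 1.26, 2.05 and 1.34 CPM in TA, a log2 fold change of 3.48 ± 0.31 (adjusted p = 0.00105). Eda2r, a receptor of the TNF receptor family, stood at 6.65, 6.99 and 5.74 CPM in CCNE-TA and 0.239, 0.811 and 0.597 CPM in TA, a change of 3.58 ± 0.45 (adjusted p = 0.00285). Bax, which permeabilises mitochondria in apoptosis, stood at 53.4, 53.9 and 65.7 CPM in CCNE-TA and 18.4, 15.7 and 17.2 CPM in TA, a change of 1.75 ± 0.17 (adjusted p = 0.00136). The groups were apart in each gene by more than their own range. Gdf15, a circulating stress cytokine, stood at 52.5, 22.6 and 40.1 CPM in CCNE-TA and 2.67, 2.84 and 6.14 CPM in TA, a change of 3.31 ± 0.43 (adjusted p = 0.00349). Cdkn1a, which encodes the CDK inhibitor p21, stood at 105, 156 and 51 CPM in CCNE-TA and 22.7, 11.3 and 2.62 CPM in TA, a change of 3.09 ± 0.84 (adjusted p = 0.0416), but the p was 0.0609 after the correction and 0.0762 to 0.124 without CCNE-TA 1, 2 or 3 or without TA 2. Xpc, a damage sensor of nucleotide excision repair, was the 1 member that fell, by 0.79 on the log2 scale, with an adjusted p of 0.0561 to 0.0781 without CCNE-TA 1, TA 1 or TA 2. Ckap2, Gtse1 and Psrc1 stand in this list and among the mitotic or spindle genes. The count was 13 to 16 in the 6 fits that leave out 1 library. It was 6 and 4 in the fits against TA 1, and the 4 included Phlda3 and Eda2r. Of 27 homologous recombination, Fanconi and checkpoint genes 7 rose and 1 fell, with a median of 0.93. Chek1, the kinase of the replication checkpoint, stood at 1.09, 1.13 and 2.12 CPM in CCNE-TA and 0.127, 0.27 and 0.171 CPM in TA, a change of 2.93 ± 0.54 (adjusted p = 0.00859). The count of this list was 4, 2 and 1 with CCNE-TA 3, TA 2 and TA 3 left out in turn, and 0 and 0 in the fits against TA 1.

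Ribosomal and respiratory genes, which have short transcripts, were higher as deposited and mostly not called after the correction. Of 76 cytosolic ribosomal protein genes 37 rose and 0 fell (median 0.6), and 5 rose and 6 fell after the correction (median 0.1). Of 75 nuclear genes for oxidative phosphorylation subunits 35 rose and 3 fell (median 0.55), and 12 rose and 6 fell after it (median 0.1). Over all tested genes 13.7% rose, and 10.5% after the correction. The ribosomal count was 6, 12, 8 and 7 with CCNE-TA 1, TA 1, TA 2 and TA 3 left out in turn, and 0 and 0 in the fits against TA 1. The respiratory count was 21, 21, 21 and 21 with CCNE-TA 1, TA 1, TA 2 and TA 3 left out in turn, and 0 and 0 in the fits against TA 1. Without CCNE-TA 2, 35 ribosomal and 31 respiratory genes rose, and 3 and 8 fell. Over all 14205 genes tested in that fit 2207 rose and 2375 fell. In the fits against TA 1 the ribosomal median was 0.68 and 0.63 and the respiratory median 0.75 and 0.73. Rpl35, a protein of the large ribosomal subunit, stood at 278, 178 and 363 CPM in CCNE-TA and 86.5, 96.8 and 91.1 CPM in TA, a log2 fold change of 1.58 ± 0.28 (adjusted p = 0.00772) and of 0.93 (adjusted p = 0.0378) with the correction. Ndufb4, a subunit of complex I, stood at 177, 124 and 206 CPM in CCNE-TA and 54.6, 58.9 and 64.8 CPM in TA, a change of 1.51 ± 0.23 (adjusted p = 0.00514) and of 1.09 (adjusted p = 0.0191) with the correction. Both genes stayed above all controls in each CCNE-TA library, and CCNE-TA 2 was the lowest of the 3.

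Several genes of the unfolded protein response fell, chaperones of the endoplasmic reticulum among them. Of 20 unfolded protein response genes 2 rose and 8 fell (median -0.93), against 14.8% of all tested genes that fell, and 0 rose and 8 fell after the correction (median -0.8). Hyou1, a chaperone of the endoplasmic reticulum lumen, stood at 84.2, 77 and 58.2 CPM in CCNE-TA and 154, 228 and 364 CPM in TA, a log2 fold change of -1.77 ± 0.33 (adjusted p = 0.00897). Dnajc3, a co-chaperone of the same compartment, stood at 109, 122.8 and 68.1 CPM in CCNE-TA and 284, 262 and 319 CPM in TA, a change of -1.53 ± 0.26 (adjusted p = 0.00715). Sel1l, a subunit of the complex that moves misfolded proteins out for degradation, stood at 74.7, 65.9 and 72.7 CPM in CCNE-TA and 144, 189 and 180.1 CPM in TA, a change of -1.27 ± 0.19 (adjusted p = 0.00513). CCNE-TA 3 had the lowest level of Hyou1 and Dnajc3, and TA 3 the highest. The 2 members that rose as deposited were the stress-induced genes Trib3, a pseudokinase, and Ddit3, which encodes the transcription factor CHOP, and neither was called after the correction. The list median per library was -0.51, -0.78 and -1.22 in CCNE-TA 1, 2 and 3 and -0.57, -0.06 and 0.61 in TA 1, 2 and 3. TA 1 was the lowest control. Each control is set against the other controls only, which widens the spread of the controls, so TA 1 and CCNE-TA 1 cannot be ranked here. The count that fell was 5 and 5 with CCNE-TA 1 and TA 3 left out in turn, and 0 and 0 in the fits against TA 1. The median difference was -0.2 among the female and -1.45 among the male libraries. In the fits against TA 1 the list median was -0.36 and -0.37.

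Hepatocyte regulators fell in part, while most genes for secreted plasma proteins did not pass the test. Of 18 hepatocyte transcription factors and nuclear receptors 1 rose and 6 fell (median -0.26), and 0 rose and 6 fell after the correction. The shares of all tested genes that fell were 14.8% and 10.3%. Prox1, a homeobox factor of hepatocyte identity, stood at 16.4, 24.7 and 20.7 CPM in CCNE-TA and 103, 50.9 and 104 CPM in TA, a log2 fold change of -2.06 ± 0.3 (adjusted p = 0.00477). Nr5a2, a nuclear receptor of bile acid and cholesterol genes, stood at 16.1, 18.5 and 13.1 CPM in CCNE-TA and 38, 52.3 and 45.1 CPM in TA, a change of -1.5 ± 0.2 (adjusted p = 0.00349). Ppara, the nuclear receptor of fatty acid oxidation, stood at 90.9, 121 and 146 CPM in CCNE-TA and 331, 332 and 290.4 CPM in TA, a change of -1.41 ± 0.23 (adjusted p = 0.00656). Each was below all controls in each CCNE-TA library, and Prox1 was called also with TA 2 and TA 3 left out. The count that fell was 1 and 1 in the fits against TA 1. Hnf4a, a central hepatocyte factor, stood at 549, 597 and 475 CPM in CCNE-TA and 916, 1159.6 and 878 CPM in TA, a change of -0.87 ± 0.24 (adjusted p = 0.0305) that did not pass with the correction (adjusted p = 0.0776) or without CCNE-TA 1, TA 1, TA 2 or TA 3 (0.0637 to 0.113). Of 13 secreted plasma carrier genes 0 rose and 2 fell, Mug1 by -2.26 (adjusted p = 0.00665) and Pzp by -1.1 (adjusted p = 0.0412). After the correction 1 of the 13 fell. Of 19 coagulation genes 3 fell, of 17 complement genes 4 fell, and none of either list rose. The secreted carrier gene Ttr stood at 10929, 9133 and 4928 CPM in CCNE-TA and 5499.7, 5529 and 5609 CPM in TA and did not pass the test, nor did Alb or Apoa1. Of 20 bile acid synthesis and transport genes 1 rose and 6 fell (median -0.67), against 14.8% of all tested genes that fell. Klb, the co-receptor through which intestinal FGF15 acts on bile acid synthesis, stood at 11.2, 8.7 and 5.71 CPM in CCNE-TA and 33, 39.6 and 23.3 CPM in TA, a change of -1.9 ± 0.3 (adjusted p = 0.00549). The count of bile acid genes that fell was 3 and 3 with CCNE-TA 1 and TA 2 left out in turn, and 0 and 0 in the fits against TA 1. Cps1, the first enzyme of the urea cycle, stood at 1806, 3093 and 1045 CPM in CCNE-TA and 4461, 6701 and 5061 CPM in TA, a change of -1.45 ± 0.42 (adjusted p = 0.034), but its adjusted p was 0.106 with the correction and 0.0556 to 0.119 without CCNE-TA 1, TA 1, TA 2 or TA 3.

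Some conjugation enzymes rose, glutathione transferases among them. Of 50 phase II enzymes 12 rose and 6 fell (median 0.14), against 13.7% and 14.8% of all tested genes, and 11 rose and 7 fell after the correction. Sult1e1, the oestrogen sulfotransferase, stood at 20.8, 22 and 6.5 CPM in CCNE-TA and 0.764, 0.324 and 0.37 CPM in TA, a log2 fold change of 5.03 ± 0.57 (adjusted p = 0.00264). Gstt2, a glutathione transferase of the theta class, stood at 191, 154 and 169 CPM in CCNE-TA and 59.5, 62.5 and 53 CPM in TA, a change of 1.56 ± 0.19 (adjusted p = 0.00268). Gsta1, of the alpha class, stood at 19.4, 33.9 and 78.2 CPM in CCNE-TA and 0.414, 0.378 and 1.9 CPM in TA, a change of 5.65 ± 0.92 (adjusted p = 0.0107). All 3 CCNE-TA libraries were above the controls in each of these genes. Glutathione transferases made up most of the members that rose, with Gsta1, Gsta2, Gstm1, Gstm3, Gstt1 and Gstt2 among them. Near-identical copies of the alpha and mu classes can share reads, and how such reads were counted is not given in the sources used here. The UDP-glucuronosyltransferases Ugt1a6a and Ugt1a6b were among the members that fell, with log2 fold changes of -2.97 and -3.12, but they are alternative first exons of 1 locus with shared last exons, so their counts are not independent. The count that rose was 4 and 2 in the fits against TA 1.

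Many genes of cholesterol and fatty acid synthesis fell. Of 25 cholesterol synthesis and uptake genes 0 rose and 12 fell (median -1.03), and 0 rose and 12 fell after the correction (median -0.99). Of 19 fatty acid and triglyceride synthesis genes 2 rose and 9 fell (median -0.9), and 1 rose and 8 fell after it. Over all tested genes 14.8% fell, and 10.3% after the correction. Stard4, a carrier of cholesterol between membranes, stood at 6.37, 7.11 and 6.32 CPM in CCNE-TA and 77.8, 110.0 and 82.7 CPM in TA, a log2 fold change of -3.77 ± 0.21 (adjusted p = 0.000154). Srebf2, which encodes the transcription factor that drives the pathway, stood at 27.7, 29.4 and 24.4 CPM in CCNE-TA and 73.2, 63.4 and 62.4 CPM in TA, a change of -1.29 ± 0.17 (adjusted p = 0.00334). For both genes the CCNE-TA libraries were below all controls. Gpam, the mitochondrial enzyme that starts glycerolipid synthesis, stood at 12.8, 13.8 and 16.9 CPM in CCNE-TA and 95, 172 and 115 CPM in TA, a change of -3.14 ± 0.27 (adjusted p = 0.000919). Fads2, a fatty acid desaturase, stood at 48.5, 80.2 and 40.8 CPM in CCNE-TA and 325, 329 and 254 CPM in TA, a change of -2.42 ± 0.3 (adjusted p = 0.00277). Acly, which makes cytosolic acetyl-CoA from citrate, stood at 69.2, 77.6 and 43.3 CPM in CCNE-TA and 223, 331 and 301 CPM in TA, a change of -2.17 ± 0.28 (adjusted p = 0.00332). Stard4 and Gpam were called with TA 2 and TA 3 left out, and Srebf2, Fads2 and Acly in the fit with the TA 1 term. The median of the cholesterol list per library was -1.15, -0.74 and -0.84 in CCNE-TA 1, 2 and 3 and -0.73, 0.72 and -0.05 in TA 1, 2 and 3. TA 1 was the lowest control. Each control is set against the other controls only, which widens the spread of the controls, so TA 1 and CCNE-TA 2 cannot be ranked here. In the fits against TA 1 the cholesterol median was -0.42 and -0.43. The count of cholesterol genes that fell was 5 and 6 with CCNE-TA 1 and TA 3 left out in turn, and 2 and 1 in the fits against TA 1. The count of lipogenic genes that fell was 5 with TA 1 left out, and 3 and 1 in the fits against TA 1.

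Genes of glucose and pyruvate metabolism fell in part. Of 34 such genes 1 rose and 12 fell (median -0.56), and 0 rose and 10 fell after the correction. The shares of all tested genes that fell were 14.8% and 10.3%. Pdpr, the regulatory subunit of the phosphatase that activates pyruvate dehydrogenase, stood at 0.584, 1.03 and 0.859 CPM in CCNE-TA and 15.5, 16.7 and 12.7 CPM in TA, a log2 fold change of -4.17 ± 0.3 (adjusted p = 0.000454). Pdha1, the catalytic subunit of pyruvate dehydrogenase, stood at 34.7, 47.1 and 22.3 CPM in CCNE-TA and 100.4, 104 and 89.1 CPM in TA, a change of -1.49 ± 0.27 (adjusted p = 0.00839). Pklr, the liver pyruvate kinase, stood at 105, 96.7 and 126 CPM in CCNE-TA and 312, 198 and 326 CPM in TA, a change of -1.35 ± 0.25 (adjusted p = 0.00909). Each CCNE-TA library was below each control, with Pdpr at 0.584 to 1.03 CPM against 12.7 to 16.7 CPM. The count that fell was 5, 7, 7 and 5 with CCNE-TA 1, TA 1, TA 2 and TA 3 left out in turn, and 1 and 1 in the fits against TA 1. Of 27 genes of fatty acid oxidation and ketogenesis 1 rose and 3 fell as deposited, shares under the 13.7% and 14.8% of all tested genes. After the correction 1 rose and 5 fell, against 10.5% and 10.3% of all tested genes. The number that fell was 0, 5, 1, 1, 1 and 1 with CCNE-TA 1, CCNE-TA 2, CCNE-TA 3, TA 1, TA 2 and TA 3 left out in turn, and 0 and 0 in the fits against TA 1. The 1 that rose was Acot2, a mitochondrial acyl-CoA thioesterase, at 25.1, 17 and 27.6 CPM in CCNE-TA and 6.34, 2.05 and 1.99 CPM in TA.

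Several oncofetal genes and bile duct markers rose. Of 21 oncofetal and progenitor genes 12 rose and 0 fell (median 1.49), and 11 rose and 0 fell after the correction. Of 15 bile duct markers 7 rose and 1 fell (median 1.25), and 6 rose and 1 fell after it. Over all tested genes 13.7% rose, and 10.5% after the correction. Spp1, Sox9 and Epcam are in both lists. Igf2, the fetal growth factor, stood at 6.12, 8.54 and 8.89 CPM in CCNE-TA and 0.525, 1.3 and 0.739 CPM in TA, a log2 fold change of 3.21 ± 0.39 (adjusted p = 0.00275), with an adjusted p of 0.0509 in a fit of all 18 libraries. Dlk1, a surface protein of fetal hepatoblasts, stood at 0.787, 4.5 and 3.01 CPM in CCNE-TA and 0.0637, 0.054 and 0.0569 CPM in TA, a change of 5.48 ± 0.76 (adjusted p = 0.00385). Mdk, which encodes the heparin-binding growth factor midkine, stood at 2.92, 1.48 and 2.7 CPM in CCNE-TA and 0.318, 0.297 and 0.171 CPM in TA, a change of 3.14 ± 0.47 (adjusted p = 0.00502). The controls of Dlk1 were near the level of 3 counts, so its fold change depends on the prior count. Cldn7, a tight junction claudin of epithelia, stood at 1.9, 2.06 and 1.5 CPM in CCNE-TA and 0.43, 0.378 and 0.341 CPM in TA, a change of 2.24 ± 0.4 (adjusted p = 0.00786). Aqp1, a water channel of bile ducts and also of endothelium, was the 1 bile duct marker that fell, at 21.2, 32.6 and 17.7 CPM in CCNE-TA and 66.2, 94.8 and 63.2 CPM in TA. The oncofetal median per library was 1.82, 1.69 and 1.15 in CCNE-TA and 0.27, -0.03 and -0.03 in TA, and that of the bile duct markers 1.38, 0.9 and 0.94 in CCNE-TA and -0.23, 0.16 and 0.05 in TA, with no overlap for either. The oncofetal count was 6 with CCNE-TA 1 left out, and 3 and 2 in the fits against TA 1. The bile duct count was 3, 4 and 3 with CCNE-TA 1, TA 1 and TA 3 left out in turn, and 1 and 0 in the fits against TA 1.

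Several genes of the Hippo pathway, the kinase cascade that restrains the growth factor YAP, fell. Of 20 genes 1 rose and 7 fell (median -0.18), against 14.8% of all tested genes that fell. After the correction 0 rose and 4 fell, against 10.3% of all tested genes that fell. Mob1a, an activator of the LATS kinases, stood at 0.838, 1.13 and 0.736 CPM in CCNE-TA and 14.7, 15.2 and 13.9 CPM in TA, a log2 fold change of -4.01 ± 0.26 (adjusted p = 0.000309). Its paralogue Mob1b stood at 3.58, 5.11 and 2.98 CPM in CCNE-TA and 19.2, 23.1 and 16.5 CPM in TA, a change of -2.33 ± 0.26 (adjusted p = 0.00241). Vgll4, a TEAD cofactor that competes with YAP, stood at 1.93, 2.06 and 2.39 CPM in CCNE-TA and 9.82, 16.8 and 9.52 CPM in TA, a change of -2.5 ± 0.3 (adjusted p = 0.00265). The groups were apart in each, with Mob1a at 0.736 to 1.13 CPM against 13.9 to 15.2 CPM. Mob1a was called with TA 2 and TA 3 left out, and Mob1b and Vgll4 in the fit with the TA 1 term. Cyr61, a YAP target, was the 1 member that rose (1.19), and its adjusted p was 0.0599 with the correction and 0.06 to 0.11 without CCNE-TA 2, CCNE-TA 3, TA 1 or TA 2. The count that fell was 3 and 4 with CCNE-TA 1 and TA 2 left out in turn, and 3 and 1 in the fits against TA 1.

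Markers of non-parenchymal cells moved in different directions. Of 23 endothelial markers 0 rose and 10 fell (median -0.68), and 0 rose and 7 fell after the correction. The shares of all tested genes that fell were 14.8% and 10.3%. Kdr, which encodes the receptor VEGFR2, stood at 3.94, 5.84 and 6.9 CPM in CCNE-TA and 20.2, 35.6 and 28.3 CPM in TA, a log2 fold change of -2.33 ± 0.29 (adjusted p = 0.00277). Pecam1, an endothelial adhesion protein, stood at 8.68, 11 and 8.07 CPM in CCNE-TA and 19.1, 22.3 and 19 CPM in TA, a change of -1.12 ± 0.19 (adjusted p = 0.00745). The CCNE-TA libraries were below all controls for both, and Kdr was called in the fit with the TA 1 term. The count that fell was 4, 6, 4 and 5 with CCNE-TA 1, CCNE-TA 3, TA 2 and TA 3 left out in turn, and 1 and 0 in the fits against TA 1. Of 19 MHC and antigen presentation genes 11 rose and 0 fell (median 1.04), and 5 rose and 0 fell after the correction (median 0.65). The shares of all tested genes that rose were 13.7% and 10.5%. B2m, the light chain of MHC class I, stood at 6307, 4746 and 4907 CPM in CCNE-TA and 1915, 1633 and 1716 CPM in TA, a change of 1.6 ± 0.27 (adjusted p = 0.00679). H2-D1, a class I heavy chain whose reads can be shared with other H2 genes, stood at 885, 548 and 653 CPM in CCNE-TA and 247, 165 and 209.9 CPM in TA, a change of 1.75 ± 0.28 (adjusted p = 0.00585). The count that rose was 5, 7, 2 and 4 with CCNE-TA 1, TA 1, TA 2 and TA 3 left out in turn, and 0 and 0 in the fits against TA 1. Of 20 chemokine genes 7 rose and 1 fell, and 3 rose and 0 fell after the correction, against the same shares of all tested genes. The chemokine count was 2, 4, 2 and 4 with CCNE-TA 1, CCNE-TA 3, TA 2 and TA 3 left out in turn, and 0 and 0 in the fits against TA 1. The lymphocyte markers gave 1 call among 14 T and NK cell genes, which was lost when any CCNE-TA library, TA 2 or TA 3 was left out, and none among 8 B and plasma cell genes. Of 19 macrophage markers 3 rose and 2 fell as deposited, shares near the 13.7% and 14.8% of all tested genes. After the correction 4 rose and 2 fell, against 10.5% and 10.3% of all tested genes. The count that rose was 1 and 1 with CCNE-TA 1 and TA 3 left out in turn, and 0 and 0 in the fits against TA 1. The number that fell was 1, 1, 1, 1 and 1 with CCNE-TA 2, CCNE-TA 3, TA 1, TA 2 and TA 3 left out in turn, and 1 and 1 in the fits against TA 1. Trem2, a receptor of lipid-associated macrophages, stood at 3.27, 1.45 and 6.17 CPM in CCNE-TA and 0.318, 0.513 and 0.341 CPM in TA, a change of 3.21 ± 0.57 (adjusted p = 0.00804). Emr1, which encodes the Kupffer cell antigen F4/80, stood at 7.01, 5.53 and 6.26 CPM in CCNE-TA and 39.7, 14.6 and 20.7 CPM in TA, a change of -2 ± 0.36 (adjusted p = 0.00805). The part of cell composition in these values was not tested.

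**Figure D4:**
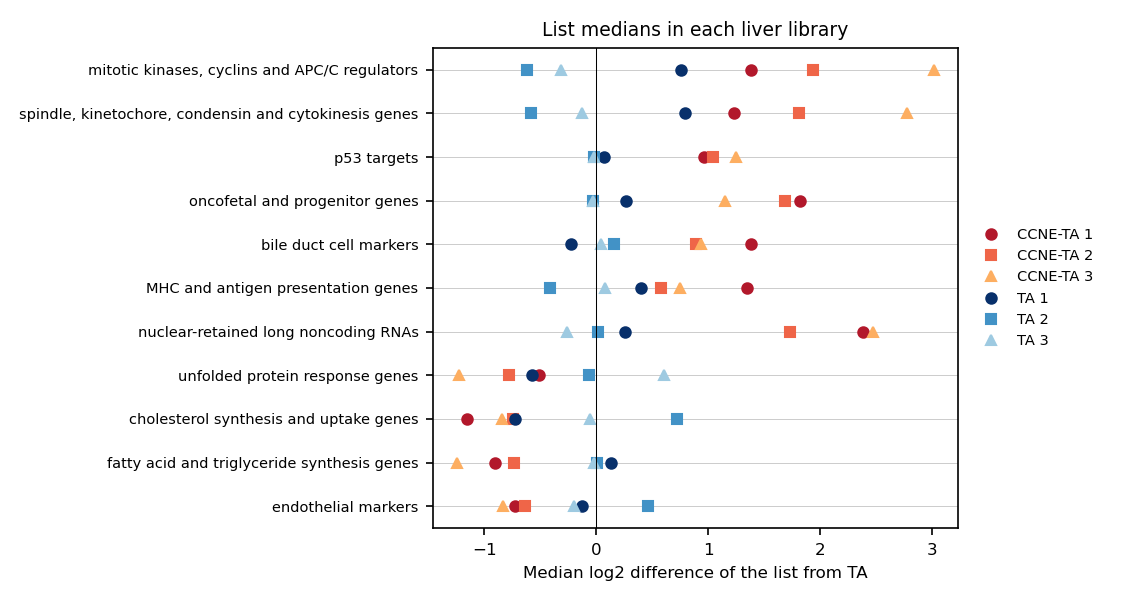
Median log2 difference of 11 gene lists in each liver library, CCNE-TA libraries against the mean of the 3 TA libraries and each TA library against the mean of the other controls. For p53 targets the CCNE-TA libraries stand at 0.96 to 1.25 and the controls at -0.02 to 0.07. For cholesterol genes CCNE-TA 2 stands at -0.74 and TA 1 at -0.73, but their references differ, so these values cannot be ranked.

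The sexes of the mice were not balanced, and genes with sex-biased liver expression differed between libraries of 1 group. The 13 male-biased genes in the table summed to 1911, 2434 and 7729 CPM in CCNE-TA and 453, 8142 and 4726 CPM in TA, and the 22 female-biased genes to 1483, 1528 and 370.4 CPM in CCNE-TA and 4029, 202 and 249 CPM in TA. Of the 11 male-biased genes tested none was called, and of the 21 female-biased genes tested Atp6v0d2 was the 1 that rose (adjusted p = 0.0488), with an adjusted p of 0.0776 to 0.135 without CCNE-TA 1, CCNE-TA 2, TA 1, TA 2 or TA 3. Cyp2a4, a steroid hydroxylase of female liver, stood at 283, 275 and 200.3 CPM in CCNE-TA and 840.0, 1.57 and 6.28 CPM in TA, so that CCNE-TA 3, male by Xist, had a level near those of the female CCNE-TA libraries. Mup20, the male pheromone darcin, stood at 1316, 1819 and 4791 CPM in CCNE-TA and 93.9, 3685 and 1460.0 CPM in TA, and the female CCNE-TA 1 and 2 were far above the female TA 1. With the Xist covariate 1 female-biased gene rose and 6 fell, and 3 male-biased genes rose and 3 fell. In each sex 1 group had a single library, so a sex by genotype difference was not tested.

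**Figure D5:**
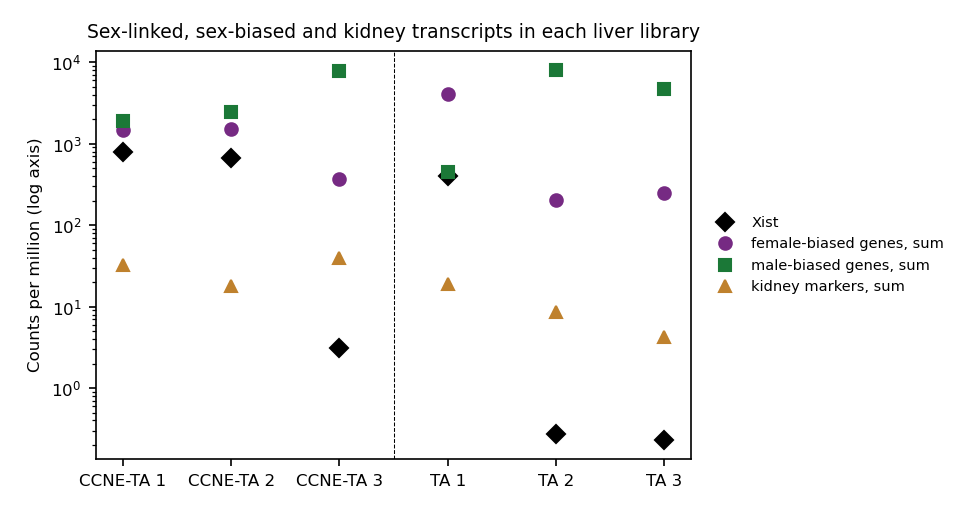
Xist, the summed female-biased and male-biased liver genes and the summed kidney markers in each liver library, in CPM on a log axis. Xist separates CCNE-TA 1, CCNE-TA 2 and TA 1 from the rest, and the kidney marker sum is lowest in TA 2 (8.62 CPM) and TA 3 (4.18 CPM) and between 17.7 and 39.4 CPM elsewhere.

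Called genes lay on every autosome, but not evenly. As deposited, 209 of 1062 genes rose and 112 fell on chromosome 7, and 151 of 694 rose and 75 fell on chromosome 17. Over all tested genes 13.7% rose and 14.8% fell. After the length and GC correction, autosome medians of the log2 difference from control lay between -0.060 and 0.154 in CCNE-TA 1, -0.025 and 0.096 in CCNE-TA 2 and -0.048 and 0.205 in CCNE-TA 3, and between -0.044 and 0.073 in the TA libraries. Chromosome 7, which carries the resident Ccne1, had the highest autosome median in all 3 CCNE-TA libraries (0.154, 0.096 and 0.205). Chromosome 17 was next in each of them (0.122, 0.058 and 0.144). The SD over autosomes was 0.058, 0.032 and 0.065 in CCNE-TA and 0.024, 0.019 and 0.018 in TA. Single genes also differed more, with an SD of the log2 difference of 0.914 to 1.37 between CCNE-TA and TA libraries and 0.672 to 0.867 between controls. An effect of whole chromosomes and this wider spread of genes were not told apart. The CCNE-TA libraries share 1 reference, so their common order of chromosomes is not 3 separate observations.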

How the data were processed

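RNA of whole liver was read, in 3 libraries of CCNE-TA and 3 of TA mice, as whole-number counts per gene symbol, deposited by the authors with no normalization, in 1 column per library of a table of 18 libraries. Per the labels' protocols the libraries were made from 100 to 200 ng of RNA with a kit that does not mark strand, so reads of overlapping genes on opposite strands are not told apart. Per the submitters' processing notes the tools were TopHat2 2.0.14, Bowtie2 2.2.6 and featureCounts 1.4.6 on build mm10. The annotation, the strand setting and the treatment of reads with several alignments are not given in the sources used here. Groups were taken from the sample titles.

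Counts were fitted in R 4.3.3 with edgeR 4.0.16 on the 6 liver libraries alone, with TMM scaling after filterByExpr, by the quasi-likelihood F test in its robust form, and p-values were adjusted over all 13811 tested genes by the Benjamini-Hochberg method with a threshold of 0.05. All adjusted p-values in the text are from this edgeR test unless another fit is named. CPM are scaled with the TMM factors, log2 fold changes carry edgeR's prior count, and each standard error is the fold change divided by the root of the F statistic. Among counts of 1 to 20, 67.8% to 70.3% were even, so counts are not single independent molecules, and the level of 3 counts covers counting error only. Transcript lengths and GC contents came from GENCODE M21 for 98.4% of symbols (94.5% by symbol and 3.88% through a RefSeq synonym). The length and GC correction is a natural spline with 4 degrees of freedom per library, entered as an offset with TMM recomputed. Promoters came from RefSeq for 79.6% of the tested genes.

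Members and gene lists were chosen with earlier results of these data known. Lists are described by the number of members called in each direction and the median log2 fold change, with no test of a list. The list median of a library is set against the mean of the 3 TA libraries, or, for a TA library, against the mean of the other controls, on log2 CPM with a prior count of 2. Genes are named by a rule: Ccne1, the 12 strongest rises and 12 strongest falls with a mean log2 CPM not under 4 that were called with and without the length and GC correction and whose groups did not overlap, and up to 4 members per list in the order of p. Not all of the 200 genes so chosen are given. Ccne2, Pcna, Wee1, Cdk1, Kif22, Cdkn1a, Gdf15, Xpc, Gtse1, Psrc1, Ctage5, Gsta1, Gstm1, Gstt1, Ugt1a6a, Ugt1a6b, Hnf4a, Ttr, Cyr61, Trib3, Ddit3 and Sox9 were added after their values had been seen.

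Alternatives were other scalings and filters, DESeq2 1.42.0, limma-voom (limma 3.58.1), 1 fit of all 18 libraries, halved counts, a block for the replicate number, a covariate for Xist, the length correction and 6 fits that each left out 1 library. The fits against TA 1 and the combinations of the length and GC correction with the Xist covariate, the block or a left-out library were chosen after seeing the data. The labels give no pairing of libraries by replicate number. Same-number correlations of the deviations from the group means were 0.2, -0.00177 and 0.0826. With deviations centred over 3 libraries per group they cannot show whether a pairing exists. The edgeR step was tested on simulated counts.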

Additional observations from a re-analysis of the deposited data

How the results depend on the processing

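Ccne1 kept its direction and its call in every setting run, with a log2 fold change of 6.51 to 7.04. The counts of 1897 genes that rose and 2045 that fell depended on the libraries. They were 639 to 2207 and 736 to 2375 when 1 library was left out, and 161 to 1831 and 302 to 1973 when this was done with the length and GC correction. The 18-library fit gave 2917 that rose, and scaling by library totals gave 1164 that fell. In the fits against TA 1, chosen after seeing the data, 56 and 20 rose and 203 and 71 fell, and the cause was not tested. The correction with the Xist covariate gave 1065 and 969, and with the replicate block 1126 and 1166. The gradient over transcript length was 1.23 as deposited and 0.148 after the correction, which is made to remove it.

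With the replicate block alone 1566 rose and 1757 fell. The replicate numbers mark no shared animal or batch in the labels, so the block is not taken as a pairing. DESeq2 called 2476 and 2484, limma-voom 1740 and 2085, a fit with no filter 1701 and 2018 of 18416 tested, and a filter of at least 1 CPM in 3 libraries 1841 and 1851. Of the 182 genes named by the rule and called, other than Ccne1, 181 were still called with DESeq2's size factors, 182 with DESeq2, 172 with upper quartile scaling, 160 in the 18-library fit, 162 with the Xist covariate, 146 with the length and GC correction, 126 to 171 without 1 library, and 36 and 21 in the fits against TA 1. None was called in the other direction in any of these settings. Depth limits genes near 0.1 CPM, where 3 counts lie.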

Other observations

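A few interferon-stimulated genes and most of the listed nuclear noncoding RNAs rose. Of 42 interferon-stimulated genes 7 rose and 1 fell (median 0.35), against 13.7% and 14.8% of all tested genes, so that the share that rose was near that of all genes, and 5 rose and 0 fell after the length and GC correction. Oas2, which makes the activator of RNase L, stood at 20.9, 10.9 and 24.4 CPM in CCNE-TA and 5.13, 1.86 and 2.62 CPM in TA, a log2 fold change of 2.54 ± 0.44 (adjusted p = 0.00759). Samd9l, an interferon-induced antiviral gene, stood at 38.9, 44.9 and 44.6 CPM in CCNE-TA and 21.5, 9.02 and 13.7 CPM in TA, a change of 1.53 ± 0.3 (adjusted p = 0.00972). The CCNE-TA libraries were above all controls for both, and TA 1 was the highest control. The count that rose was 4 with CCNE-TA 1 left out, and 0 and 0 in the fits against TA 1.

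Of 9 nuclear-retained long noncoding RNAs 6 rose and 0 fell (median 1.84), and 7 rose and 0 fell after the correction. The shares of all tested genes that rose were 13.7% and 10.5%. Meg3, an imprinted noncoding RNA of chromosome 12, stood at 45.9, 17.8 and 182 CPM in CCNE-TA and 4.68, 4.4 and 2.53 CPM in TA, a log2 fold change of 4.39 ± 0.97 (adjusted p = 0.0249), and Mirg, of the same imprinted locus, at 0.99, 0.563 and 6.59 CPM in CCNE-TA and 0.111, 0.0811 and 0.256 CPM in TA, a change of 4.18 ± 1.04 (adjusted p = 0.0226). CCNE-TA 3 was the highest library for both. The count that rose was 2, 2, 1 and 1 with CCNE-TA 1, TA 1, TA 2 and TA 3 left out in turn, and 0 and 0 in the fits against TA 1. Of 18 immediate early genes 5 rose and none fell, and 2 rose after the correction, against 13.7% and 10.5% of all tested genes. The count was 1, 2, 1, 2 and 3 with CCNE-TA 1, CCNE-TA 3, TA 1, TA 2 and TA 3 left out in turn, and 0 and 0 in the fits against TA 1. Klf6, a growth-responsive zinc finger factor, stood at 24.3, 18.9 and 18.2 CPM in CCNE-TA and 8.1, 6.38 and 6.6 CPM in TA, a change of 1.54 ± 0.2 (adjusted p = 0.00344), with no overlap between groups.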
